A study of Homo sapiens with 5 samples.

Results

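The clustered protocadherin genes are 53 protein-coding genes on chromosome 5 whose symbols start with PCDHA, PCDHB or PCDHG. They were taken from GENCODE release 44 on the human genome build hg19, where they make up 53 of 20162 protein-coding genes and 53 of 64440 annotated genes. They lie in 3 neighbouring clusters that run in one direction over 727 kb, at chr5:140165721-140892544. By their symbols they fall into 13 alpha genes, 16 beta genes, 12 gamma A genes, 7 gamma B genes and 5 C-type genes (PCDHAC1, PCDHAC2, PCDHGC3, PCDHGC4 and PCDHGC5).

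PHF8 is a Jumonji C histone demethylase with a PHD finger that reads trimethylated lysine 4 of histone H3. The study mapped its genomic targets in melanoma cells as part of wider work on PHF8 in melanoma invasion and metastasis. Chromatin of the established human melanoma line SKMEL-147 was precipitated with an antibody against PHF8 and sequenced in 3 replicates, named A, B1 and B2. The labels give no treatment and no genetic change, so there was 1 group and no contrast between conditions. Whether the cells carried a control construct is not stated in the labels. The 2 input libraries (A and B) entered only through the enrichment values of each peak. The labels do not say whether replicates came from separate cultures, and B1 and B2 share a letter, so the spread between them may be technical.

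Clustered protocadherins are cell-surface adhesion proteins that recognise identical copies of themselves on the opposite membrane, and they are best known for giving individual neurons distinct surface identities. Each variable exon of the alpha and gamma clusters has a promoter of its own and is spliced to constant exons shared by the cluster, whereas each beta gene is a single exon. Most of these promoters carry a conserved sequence element with a CGCT box, are chosen one by one in single cells through CTCF and cohesin, and can be silenced by DNA methylation, while the C-type genes are used more uniformly.

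Promoters with the strongest PHF8 peaks among the 53 genes, and counterparts without a peak, are shown as 230 bases each. These are 200 bases upstream of the 5′-most transcription start site (TSS) and the first 30 transcribed. The peaks were strong only within the family, and stayed below the median of other protein-coding genes with a peak. Capitals mark CpG dinucleotides, the pairs that can be methylated. All stretches are on the plus strand of hg19, 5′ to 3′. PCDHGC3 (chr5:140855314-140855543), PCDHA4 (chr5:140186422-140186651) and PCDHAC2 (chr5:140345855-140346084) had the highest fold enrichment of the 53 genes by the mean over replicates, although PCDHB14 exceeded PCDHA4 in A and PCDHAC2 in B2. PCDHB11 (chr5:140578983-140579212) and PCDHB1 (chr5:140430759-140430988) had none, and are the genes without a peak whose CpG ratio was nearest to that of PCDHA4 and of PCDHAC2.
PCDHGC3: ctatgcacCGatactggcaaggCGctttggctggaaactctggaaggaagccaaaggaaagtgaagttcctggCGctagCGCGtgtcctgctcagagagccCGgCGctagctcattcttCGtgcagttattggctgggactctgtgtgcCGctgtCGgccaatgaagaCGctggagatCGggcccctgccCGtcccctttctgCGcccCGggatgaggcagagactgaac
PCDHA4: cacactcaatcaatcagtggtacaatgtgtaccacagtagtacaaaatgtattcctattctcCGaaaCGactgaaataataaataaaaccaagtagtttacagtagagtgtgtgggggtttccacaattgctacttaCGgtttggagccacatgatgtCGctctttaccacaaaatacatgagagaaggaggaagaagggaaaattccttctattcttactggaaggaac
PCDHAC2: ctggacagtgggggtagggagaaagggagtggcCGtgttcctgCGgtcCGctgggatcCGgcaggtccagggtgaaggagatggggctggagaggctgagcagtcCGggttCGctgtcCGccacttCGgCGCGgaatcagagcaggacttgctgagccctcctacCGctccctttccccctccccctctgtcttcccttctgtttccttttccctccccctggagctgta
PCDHB11: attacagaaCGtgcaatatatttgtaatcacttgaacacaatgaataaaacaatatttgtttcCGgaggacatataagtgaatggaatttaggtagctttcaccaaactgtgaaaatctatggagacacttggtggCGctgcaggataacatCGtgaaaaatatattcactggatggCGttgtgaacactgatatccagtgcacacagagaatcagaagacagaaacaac
PCDHB1: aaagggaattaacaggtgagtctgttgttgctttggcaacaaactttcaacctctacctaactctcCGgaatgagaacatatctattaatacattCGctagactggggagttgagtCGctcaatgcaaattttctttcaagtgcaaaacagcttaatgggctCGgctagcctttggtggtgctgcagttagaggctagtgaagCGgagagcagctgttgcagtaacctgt
The stretch of PCDHGC3 held 15 CpGs and that of PCDHAC2 held 11, whereas that of PCDHA4 held 4 and those of PCDHB11 and PCDHB1 held 5 each. The peaks of PCDHA4 lay mostly downstream of the stretch shown. In the first 500 bp after the 5′ TSS, PCDHA4 held 30 CpGs, PCDHB1 26 and PCDHB11 13.

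Replicates A, B1 and B2 had lists of 21506, 20882 and 20120 peaks, with at least 8, 8 and 10 ChIP fragments at the summit of the weakest peak. Enrichment ran on different scales, with a median fold enrichment over input of 18.9 in A and 11.8 in both B1 and B2, so levels were compared within a replicate. Of 8 melanocyte lineage genes, SOX10, PMEL and MITF had promoter peaks in all 3 replicates, and MLANA, TYR, TYRP1, DCT and S100B had none. Among markers of other cell types, PDGFRB had a peak in all 3, COL1A1 in 2, and KRT5 and KRT14 in none. A peak is not expression, so the label of the cells could not be checked by this.

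PHF8 peaks were found at few clustered protocadherin promoters. A promoter was the stretch within 1 kb of any annotated TSS of the gene, and a gene was called bound where a peak overlapped it by at least 1 bp in all 3 replicates. By this measure 5 of 53 genes were bound (9.43%, 95% Wilson interval 4.1% to 20.3%, counting error only), against 12139 of 20162 protein-coding genes (60.2%). The bound genes were PCDHA4, PCDHAC2, PCDHB9, PCDHB14 and PCDHGC3. A further 3 genes (PCDHA5, PCDHB2 and PCDHB16) had a peak in A only, and the other 45 had a peak in no replicate. Over all genes, the study reported fewer PHF8 targets by a like rule, and the reason for the larger count here was not examined.

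The same low share was seen in each replicate. In A, 8 of the 53 genes had a promoter peak (15.1%), against 62.4% of all protein-coding genes. In B1 there were 5 (9.43%, against 61.2%), and in B2 again 5 (9.43%, against 60.8%). All 5 genes with a peak in B1 or B2 also had one in A, and no gene had a peak in exactly 2 replicates. The share of the protocadherins minus that of the other protein-coding genes was -47.4 (A), -52.0 (B1) and -51.5 (B2) percentage points, a mean of -50.3 ± 2.5 (SD, n = 3). The direction was the same in 3 of 3 replicates, with p = 0.25 by exact sign-flip permutation over replicates (two-sided), the smallest p that 3 replicates allow. No 1 kb window of a member met that of another member, so a peak was not counted for a pair of them.

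**Figure D1:**
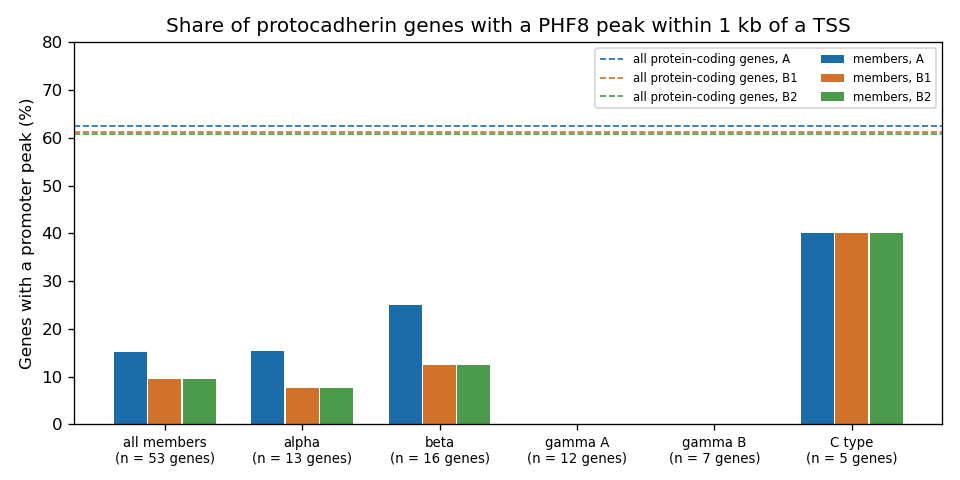
Share of genes (%) with a PHF8 peak within 1 kb of a TSS in replicates A, B1 and B2 (bars), for all 53 clustered protocadherins and their subgroups, with the share among all protein-coding genes as dashed lines. All bars stay below the lines at 62.4%, 61.2% and 60.8%, and gamma A and gamma B are at 0.

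The bound genes fell among the alpha, beta and C-type genes, and the counts are small. Among the alpha genes, 1 of 13 was bound in all 3 replicates (PCDHA4), and among the beta genes 2 of 16 (PCDHB9 and PCDHB14). Of the 12 gamma A and the 7 gamma B genes, 0 had a peak in any replicate, which leaves upper Wilson limits of 24.2% and 35.4%. Of the 5 C-type genes, 2 were bound (PCDHAC2 and PCDHGC3), 40% with an interval of 11.8% to 76.9%, against 3 of the other 48 (6.25%, 2.15% to 16.8%). These intervals overlap, and the difference between subgroups was not tested. PCDHAC1, PCDHGC4 and PCDHGC5, the remaining C-type genes, had no peak. By cluster, 2 of 15 alpha, 2 of 16 beta and 1 of 22 gamma genes were bound.

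With 5 bound genes among 53, long runs of genes without a shared peak follow from the count, and they are given as positions alone. The longest reached from PCDHB15 to PCDHGA12, with 20 neighbouring members over 185 kb and no promoter peak in any of the 3 replicates. In the alpha cluster, the 10 genes from PCDHA5 to PCDHAC1 over 105.0 kb had none shared, although PCDHA5 had a peak in A. In the beta cluster the 9 genes from PCDHB1 to PCDHB16 over 131.0 kb had none shared, although PCDHB2 and PCDHB16 had a peak in A.

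**Figure D2:**
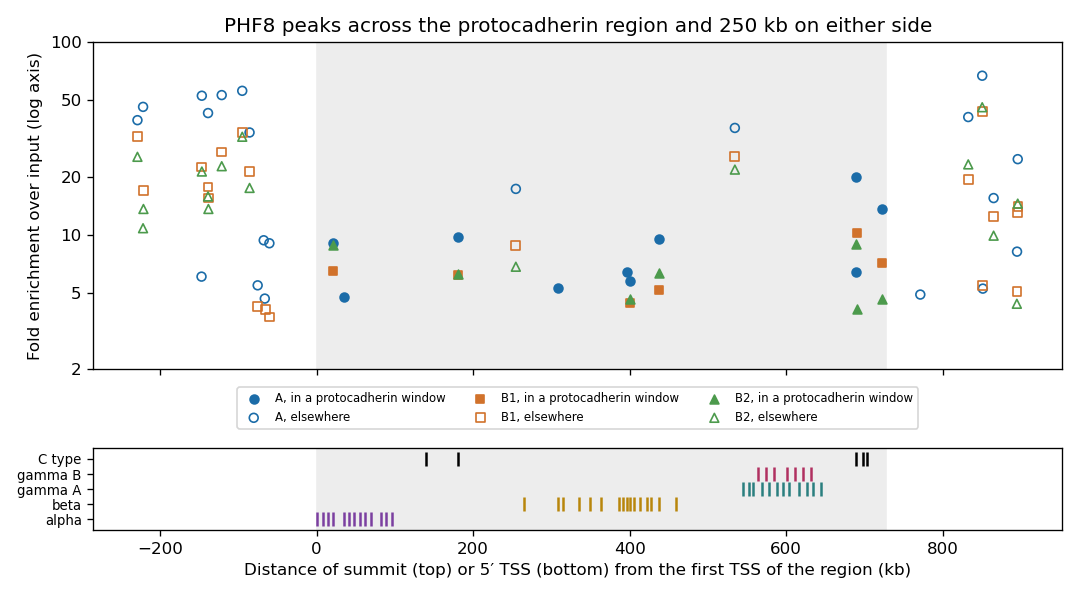
Fold enrichment over input (log axis) of every PHF8 peak in A, B1 and B2 against its distance in kb from the first TSS of the protocadherin region (shaded, 727 kb), with filled symbols for peaks that overlap a member's window and ticks for the 5′ TSS of each member below. Filled symbols lie between 4.09 and 19.9, while open symbols outside the region reach 67.1.

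PCDHGC3, a C-type gamma gene, carried the strongest peak of the 53 promoters in each replicate. Enrichment over input reached 19.9-fold in A, 10.2-fold in B1 and 8.91-fold in B2 (mean 13.0 ± 6.01, SD, n = 3), from 55, 32 and 29 ChIP fragments at the summit. The 3 peaks spanned chr5:140855490-140856094 in A, chr5:140855527-140856095 in B1 and chr5:140855543-140856053 in B2, with summits 141, 145 and 99 bp downstream of the 5′ TSS, in the 5′ untranslated part of the variable exon. In A the gene had another, weaker peak with its summit at -254 bp from that TSS (6.43-fold, 17 fragments), and in B2 one 792 bp downstream within the coding part (4.09-fold, 13 fragments). Even this promoter stood low among the protein-coding genes with a promoter peak, at their 21.3rd, 15.7th and 12.7th percentile of fold enrichment.

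PCDHA4, an alpha gene in the early part of its cluster, had fold enrichments of 9.02 (A), 6.48 (B1) and 8.87 (B2) (mean 8.12 ± 1.43, SD, n = 3). Its peaks covered nearly the same stretch in the 3 lists (starts 42, 24 and -10 bp and ends 576, 562 and 574 bp from the 5′ TSS), and rested on 24, 18 and 26 fragments. The summits lay 143, 264 and 321 bp downstream of the TSS, in the untranslated part in A and in coding sequence in B1 and B2. Within the peak only 71.2% of 32-base words occur once in the genome, against 98.0% or more in the peaks of the other members, so reads there are less surely placed.

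PCDHAC2, the last variable gene of the alpha cluster, had fold enrichments of 9.74, 6.14 and 6.24 in A, B1 and B2 (mean 7.37 ± 2.05, SD, n = 3), from 24, 17 and 18 fragments. Its peaks straddled the 5′ TSS, from -276, -290 and -175 bp to 216, 238 and 290 bp, with summits at 120, 41 and -49 bp. This stretch also overlaps the window of a long non-coding RNA (ENSG00000279028), so the peak cannot be assigned to one of them.

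PCDHB14 and PCDHB9 are single-exon beta genes with narrow peaks. PCDHB14 had fold enrichments of 9.46 (A), 5.18 (B1) and 6.32 (B2) (mean 6.99 ± 2.22, SD, n = 3), from 24, 17 and 21 fragments. Its peak of about 200 bp also lies in the window of a protein-coding readthrough gene (ENSG00000279983). PCDHB9 had 5.71, 4.43 and 4.6 (mean 4.91 ± 0.695, SD, n = 3), from 20, 12 and 13 fragments, the weakest of the peaks that the replicates shared. Summits were 170, 137 and 114 bp downstream of the TSS at PCDHB14 and 151, 126 and 133 bp at PCDHB9, a range of 56 and 25 bp.

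The peaks found in A alone had values like the weakest shared ones. PCDHB16 had a fold enrichment of 6.4 (18 fragments), PCDHB2 of 5.3 (13 fragments) and PCDHA5 of 4.76 (15 fragments). Their summits lay 97, 165 and 145 bp downstream of the 5′ TSS. The peaks of PCDHB16 and PCDHA5 also overlap windows of non-coding genes (ENSG00000279068 and ENSG00000279726). Replicate A also had the longest list and the lowest genome-wide background (1.567 fragments at a position, against 1.932 in B1 and 2.044 in B2), and the part of this in the extra calls was not tested.

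**Figure D3:**
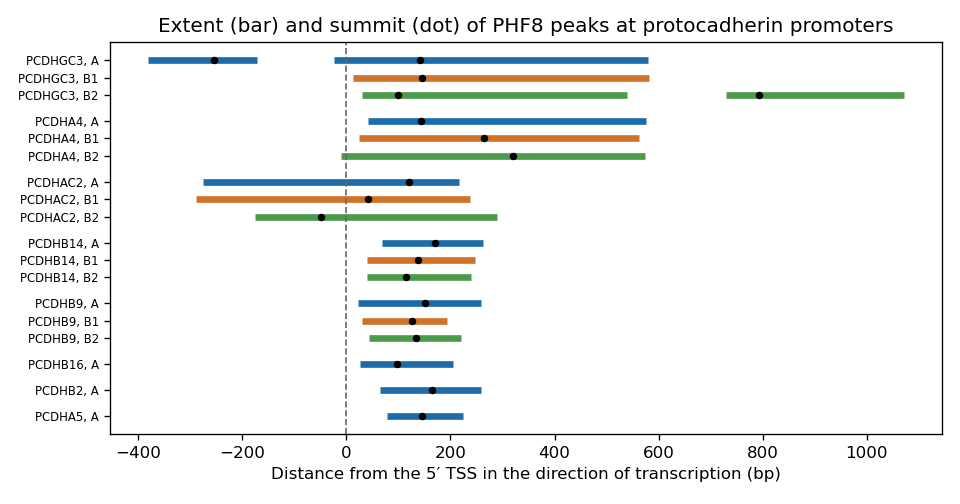
Extent (bars) and summit (dots) of each PHF8 peak near the 5′ TSS of the 8 protocadherin genes with a peak, in bp from that TSS in the direction of transcription, by replicate. In 6 of the 8 genes every summit lies 97 to 321 bp downstream, whereas at PCDHAC2 they run from -49 to 120 bp and at PCDHGC3 weaker peaks lie at -254 and 792 bp.

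Where a protocadherin had a peak, its enrichment was below the median of other genes. The median over other protein-coding genes with a peak was 32.7 (A), 19.1 (B1) and 18.2 (B2) for the strongest promoter peak of each gene, against 7.71, 6.14 and 6.32 for the protocadherins with a peak in that replicate, which in A include the 3 genes with a peak in A only. In each replicate 0 members reached the median of the other genes, and PCDHGC3 came nearest, at 0.61, 0.533 and 0.49 of it. In fragments the medians were 22, 17 and 21 for members against 95, 63 and 62 for other genes.

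Counted by peak, the log2 median fold enrichment at protocadherin promoters was 2.95 (A), 2.66 (B1) and 2.64 (B2), against 4.55, 3.77 and 3.72 at other protein-coding promoters. The difference was -1.60, -1.11 and -1.08, a mean of -1.27 ± 0.294 (SD, n = 3), lower in 3 of 3 replicates with p = 0.25 by the exact sign-flip permutation test, the smallest it can give. Peaks of the 3 genes called in A only and a peak in a PCDHGC3 intron are among these, and promoters without a listed peak are not.

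**Figure D4:**
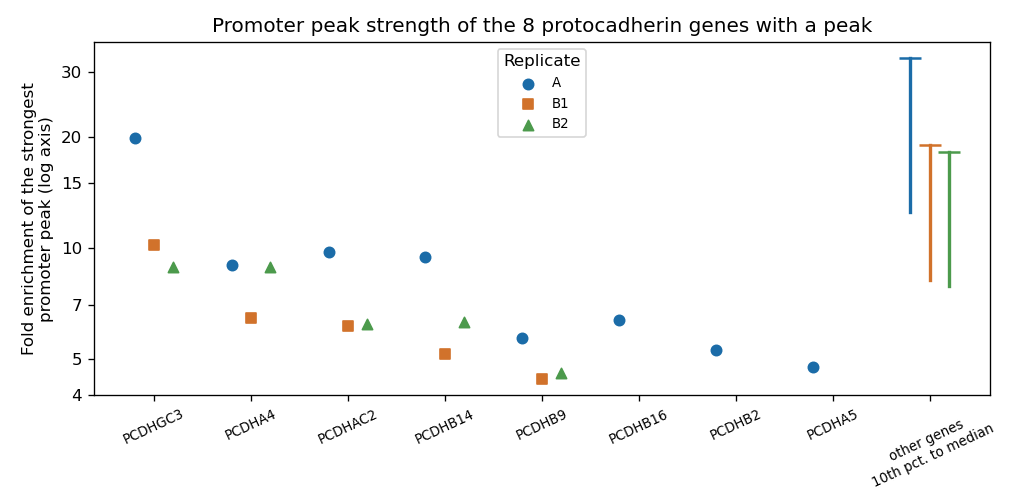
Fold enrichment (log axis) of the strongest promoter peak of each protocadherin gene with a peak, by replicate, beside the range from the 10th percentile to the median of other protein-coding genes with a promoter peak. All points lie below the medians of their own replicate (32.7, 19.1 and 18.2), and PCDHGC3 is above the 10th percentile in each.

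A pair of peaks that the replicates shared lay away from the variable promoters. Both are shown with 50 bases on either side of a summit, on the plus strand of hg19, because no TSS of a variable exon was near them. The first (chr5:140420351-140420451) lies between the alpha and beta clusters and the second (chr5:140888568-140888668) in an intron between the last constant exons of the gamma cluster. Capitals again mark CpGs.
Alpha to beta gap peak: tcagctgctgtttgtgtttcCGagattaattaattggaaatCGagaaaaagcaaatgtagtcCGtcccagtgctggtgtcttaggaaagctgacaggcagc
Gamma constant intron peak: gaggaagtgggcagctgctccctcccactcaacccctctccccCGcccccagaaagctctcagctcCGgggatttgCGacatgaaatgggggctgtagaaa
The gap peak had fold enrichments of 17.3 (A), 8.8 (B1) and 6.81 (B2), from 51, 33 and 30 fragments, and its summits fell within 12 bp of each other. It lay 28.5 kb after the end of the alpha cluster and 10.6 kb before PCDHB1, in the TSS window of a long non-coding RNA (ENSG00000288892). It was stronger than the peak of any beta gene in each replicate.

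The intron peak had fold enrichments of 13.6, 7.16 and 4.6 in A, B1 and B2, from 34, 20 and 13 fragments, with summits within 24 bp. It lay 3.9 kb before the end of the gamma cluster, between the constant exons at chr5:140884960-140885048 and chr5:140890514-140892542. An internal TSS is annotated for a PCDHGC3 transcript 966 to 990 bp from the summits, so this peak also counts within a PCDHGC3 window. PCDHGC3 was bound through its 5′ promoter as well.

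Across the whole 727 kb region there were 12 peaks in A, 8 in B1 and 9 in B2, that is 1.65, 1.10 and 1.24 per 100 kb, against 0.546, 0.536 and 0.516 over chromosome 5. The difference averaged 0.797 ± 0.278 peaks per 100 kb (SD, n = 3), higher in 3 of 3 replicates with p = 0.25 by the exact sign-flip permutation test. By length, the region was thus denser in peaks than the chromosome as a whole, but sparser than its surroundings in each replicate. It holds 53 members and 4 other protein-coding genes with a TSS inside it, and this measure takes no account of promoter number. Counted by gene, the members were bound less often than protein-coding genes in general (9.43% against 60.2%). The 250 kb before the region held 4.8, 4.4 and 3.6 peaks per 100 kb and the 250 kb after it 2.8, 2.8 and 2.0. In A the densities were 1.33 in the alpha, 2.02 in the beta and 1.64 in the gamma cluster. In B1 they were 0.884, 1.01 and 1.10, and in B2 0.884, 1.01 and 1.64, so the order of the clusters differed between replicates.

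Genes next to the clusters were bound more often than the clustered genes, at a share near that of other genes with like promoter sequence. Of 19 other protein-coding genes with a TSS within 250 kb of either end, 16 were bound in all 3 replicates (84.2%, against 60.2% of all protein-coding genes). Of these 19 genes, 18 had CpG-island-like promoter sequence (a GC share of 0.5 or more and a CpG ratio, observed over expected, of 0.6 or more within 250 bp of a TSS), a class bound in 79.5% of cases over all protein-coding genes. HDAC3, a histone deacetylase, and RELL2 shared the strongest peak of these (67.1, 43.7 and 46.0 in A, B1 and B2), and the 3 without a peak were EIF4EBP3, CD14 and DND1. APBB3 and SLC35A4, NDUFA2 and IK, and HARS1 and HARS2 also had the same values in each replicate. The 16 genes thus rest on fewer peaks, and the share over all protein-coding genes was counted by gene in the same way. Within the region 2 of 4 other protein-coding genes were bound, one of them through the peak it shares with PCDHB14. The other, TAF7, a subunit of the general transcription factor TFIID, lies between the beta and gamma clusters and had fold enrichments of 35.9, 25.4 and 21.8. Its promoter exceeded every protocadherin promoter in its replicate and lay 9.8 to 9.9 kb before the first gamma gene. SLC25A2, a mitochondrial carrier gene in the same gap, and AC005609.1 had no peak.

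Protocadherins outside the clusters, which have conventional promoters of their own, were bound in 6 of 12 cases. PCDH9 had 47.1, 24.7 and 27.2, PCDH12 had 32.5, 32.4 and 30.9, and PCDH19 had 8.96, 6.82 and 5.59. PCDH1, PCDH10 and PCDH18 were also bound, with values from 5.12 to 16.4, and PCDH7, PCDH8, PCDH11X, PCDH15, PCDH17 and PCDH20 had no peak. Their share of 50.0% was nearer to the 60.2% of all protein-coding genes than that of the clustered genes. Of the 12, however, 10 had CpG-island-like promoter sequence, and 5 of these 10 were bound, against 79.5% of all protein-coding genes with such sequence. All 13 listed regulators of clustered protocadherin promoters had a promoter peak in all 3 replicates. All 13 had CpG-island-like promoter sequence, a class bound in 79.5% of cases over all protein-coding genes. Among them were CTCF (43.8, 24.6 and 25.6), the cohesin subunit RAD21 (27.7, 13.8 and 11.5) and the silencing factor SMCHD1 (43.5, 28.6 and 26.9). The lowest were STAG2 (16.8, 7.84 and 8.21) and SETDB1 (16.1, 9.29 and 10.6).

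CpG-island-like sequence, by the same thresholds, was less common among the members. By any of their TSSs 17 of 53 had it (32.1%), against 72.4% of all protein-coding genes. Of these 17, only PCDHAC2 and PCDHGC3 were bound (11.8%, interval 3.29% to 34.3%), whereas 79.5% of all protein-coding genes with such sequence were. With 500 bp on either side of a TSS in place of 250, 2 of 9 such members were bound (22.2%). Of all protein-coding genes with such sequence by that window, 81.1% were. Of the 36 members without such sequence at any TSS, 3 were bound (8.33%). Over all protein-coding genes, 12139 of 20162 were bound, and 11605 of these were among the 14591 with such sequence. Genes without it were thus seldom bound in general, so the 8.33% is not particular to protocadherins. The share was also low among the 17 members with such sequence, but the counts are small. At the 5′ TSS alone only 8 members had it, with PCDHAC2 and PCDHGC3 again the bound ones. The part of promoter sequence in the low share was not tested.

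At the 5′ TSS the median GC share was 43.5% for all members, against 64.5% for other protein-coding genes bound in all 3 replicates and 55.1% for those without a peak. The median CpG ratio was 0.599 for members, 0.818 for other bound genes and 0.321 for other genes without a peak. Within the clusters the bound genes did not stand apart by it, running from 0.319 at PCDHB9 to 0.684 at PCDHGC3, with a median of 0.6 for the 45 without a peak. PCDHAC1, PCDHGB6 and PCDHGC4 held 39, 34 and 31 CpGs within 250 bp of the TSS and had no peak, while the bound PCDHAC2 and PCDHGC3 held 34 and 30. At PCDHA9, PCDHA11 and PCDHGA8 the annotated 5′ TSS lies 724, 921 and 2657 bp before the first start codon (median of all members 177 bp), so their values describe sequence farther upstream.

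**Figure D5:**
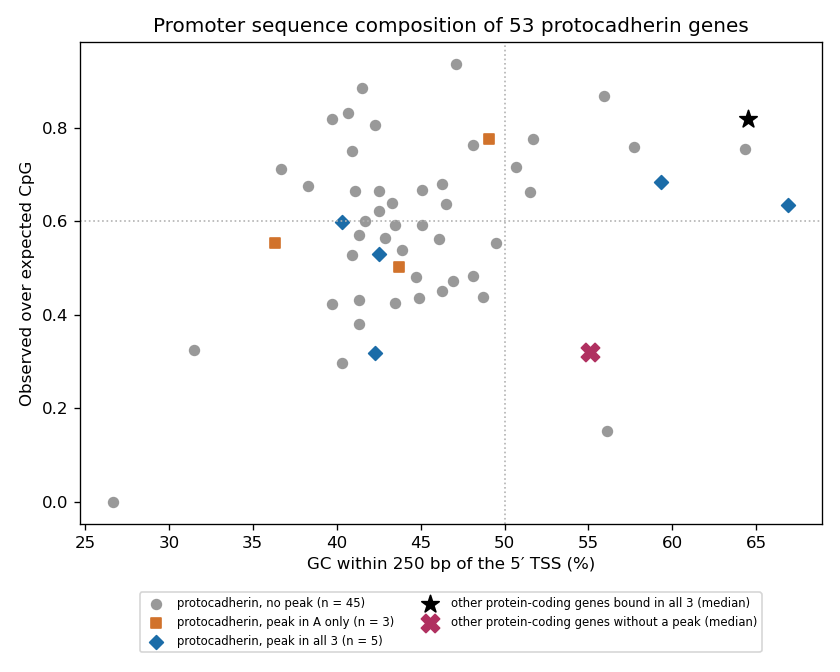
GC share (%) and observed over expected CpG ratio within 250 bp of the 5′ TSS of the 53 protocadherin genes, by whether they had a PHF8 peak, with medians of other protein-coding genes bound in all 3 replicates (64.5% and 0.818) and without a peak (55.1% and 0.321). By CpG ratio the bound members lie among those without a peak. By GC share PCDHAC2 (66.9%) lies above all members without a peak (at most 64.3%), and most members lie left of both medians.

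The CGCT letters of the conserved element were found in the sense direction from 250 bases before the 5′ TSS to the first 50 transcribed in 51 of 53 members (96.2%), against 60.0% of all protein-coding promoters, and were missing at PCDHA11 and PCDHGC5. At PCDHA11 the annotated 5′ TSS lies 921 bp before the first start codon, so the stretch searched there was farther upstream. The CGCT letters were also found at PCDHAC2, PCDHB1 and PCDHGC4, which are known to lack the element. They were present at all 5 bound promoters and at 43 of the 45 without a peak. TATAAA was found on either strand at 14 members (26.4%, against 10.9% of all protein-coding genes). None of the 14 was among the 5 bound members, a number too small to read as a difference. Of other protein-coding genes bound in all 3 replicates, 6.44% had TATAAA. The CTCF core motif, searched on both strands, was found at 0 members and at 0.531% of all protein-coding genes (107 of 20162). A motif that matched so few promoters would be rare among 53 genes in any case. The 0 therefore does not show that the members lack CTCF sites. Of the 4 members known to lack the conserved element (PCDHAC2, PCDHB1, PCDHGC4 and PCDHGC5), 1 was bound, against 4 of the other 49.

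Related sequence in the family left most promoters distinguishable. In the 1 kb on either side of the 5′ TSS, 97.3% of 32-base words occurred once in the genome in the median member, and 97.3% in the median member without a peak, against 98.2% at the neighbouring genes. The lowest values were 56.4% at PCDHB8 and 56.8% at PCDHB13, both without a peak, and among the bound genes 78.1% at PCDHB9. At 38 of the 53 members the value was 90% or more.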

How the data were processed

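SKMEL-147 chromatin, per the labels, was crosslinked, sonicated and precipitated with an anti-PHF8 antibody in 3 replicates. The authors aligned reads to hg19 (Bowtie2, default settings) and called narrow peaks with MACS on each replicate separately against input. Picard and bcl2fastq stand in the submitters' processing notes without versions. Read totals and the treatment of duplicates are not stated. The deposited lists give each peak a fold enrichment, a linear ratio of ChIP over local background at the summit, and the p-value and q-value as −log10 values. The deposited score and the authors' summit offsets accompany them, and the score was not used. The study's q cutoff was read as below 0.05, and all listed peaks passed it and a fold enrichment above 1.5.

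Genes and TSSs were those of GENCODE release 44 lifted to GRCh37, the same build, on chromosomes 1 to 22, X and Y. Fragments at summits were recovered from the fold enrichment and p-value under a Poisson law, and came out whole for 100% of peaks within a tolerance of 0.001. Amplified copies may be among them, and intervals therefore reflect counting error alone. Scripts used Python 3.11.15, pandas 2.3.3, SciPy 1.17.1, NumPy 2.4.6 and pysam 0.24.0, and were tested on simulated data. Shares, levels and densities were compared by exact two-sided sign-flip permutation tests over the 3 replicates. Counts over genes were read against those of all protein-coding genes, with no test over members.

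The named genes were all members by symbol, other protein-coding genes in the region or within 250 kb of it, PCDH genes outside the clusters, 13 regulators and cell type markers. Members and lists were chosen with earlier results of these data known. Alternatives were stricter cutoffs (fold enrichment above 4 or 10, q-value below 0.001), TSS windows of 500 bp or 2 kb, a summit within the window, a single TSS for each gene, lists of equal size, fewer replicates required, recovered fragments, other CpG criteria and leaving out each replicate.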

Additional observations from a re-analysis of the deposited data

How the results depend on the processing

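The count of bound clustered protocadherin genes was 5 under 11 of 13 alternatives, and it was the same 5 genes. With a fold enrichment above 10 it was 0, since no peak of these genes passed that level in B2, and with a peak in at least 1 replicate it was 8. The tested differences kept their direction under each alternative run. The bound share of members with CpG-island-like sequence has no direction, and its range spans 1 of 9 to 2 of 9 genes. The difference in shares ranged from -52.5 to -44.1 percentage points, the difference in log2 median fold enrichment from -1.48 to -1.10, the excess density from 0.644 to 0.913 peaks per 100 kb, and the bound share of members with CpG-island-like sequence from 11.1% to 22.2%. Leaving out each replicate gave 5 bound genes each time. With 3 replicates no permutation p could go below 0.25, or 0.5 with 1 left out. A peak with fewer than 8 to 10 fragments at its summit would not be listed, so weaker binding was not detectable at this depth. The tested differences were taken within each replicate. Between groups of samples, no paired analysis was possible because there was 1 ChIP group and the inputs had no lists of their own.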
